A study of Mus musculus with 5 samples.

Results

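CpG-dense stretches of the genome that were nevertheless methylated were examined in mouse bone marrow LSK cells, the Lin- Sca1+ cKit+ fraction that holds blood stem cells and multipotent progenitors. The genome was divided into tiles of 1000 bp, and only CpGs with a coverage of at least 10 in all 5 libraries were used, on autosomes without chromosome 6 beyond 100 Mb. A tile was called CpG-dense with at least 15 such CpGs. It was taken as methylated when the CpG methylation level, averaged over its CpGs and then over the 3 wild-type libraries, was over 80%. This gave 647 tiles of the 15119 CpG-dense tiles, or 4.28%, and they held 13186 measured CpGs. Of the other dense tiles, 14041 had a wild-type level of 20% or less and 431 lay in between.

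The 5 libraries were made by enhanced reduced representation bisulfite sequencing (ERRBS). MspI, which cuts at CCGG, releases CpG-rich fragments, and bisulfite converts unmethylated cytosine, which is then read as T, while methylated cytosine keeps being read as C. The 2 targeted libraries have titles that read KO and a genotype label that marks them as heterozygous (+/-), so how many alleles were targeted is not stated here. The other 3 libraries are wild-type, and all 5 carry the strain label C57BL/6, with no treatment given. Methylation tables hold no expression values by which the sorted cells could be checked. The comparison of the groups addresses whether targeting the gene changes DNA methylation in these cells. The labels state no age for these libraries. They also leave unstated whether each library is from its own animal, so p-values cover the spread among these 5 libraries, possibly a technical one.

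In mammals most CpGs are methylated, but CpG-dense sequence is usually not. Such sequence, known as CpG islands, overlaps the start of most housekeeping and developmental genes and is kept free of methylation there. Known exceptions are the promoters of many genes used only in germ cells, which are methylated in somatic tissues, 1 parental allele of imprinted genes, and CpG-rich sequence inside transcribed genes, away from their start.

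No gene annotation of the files' build, mm9, was used, so gene starts were placed by sequence. The RefSeq promoter windows of GRCm38.p6, which reach from 250 bp before to 50 bp after a gene's start, were matched to the measured mm9 positions by the spacing of their CpGs. This placed 7727 windows of 6908 genes on the mm9 autosomes. Exons, introns and UTRs were not told apart. A tile in a gene without a matched window counts as outside matched genes.

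Of the 636 methylated tiles on chromosomes with matched starts, 15 held a matched gene start, or 2.36%, against 36.8% of all CpG-dense tiles. Those 15 tiles held 18 windows of 17 genes. The windows of 4 germline genes and of the imprinted gene Mcts2 are shown because they are CpG-dense gene starts that were methylated here, and the window of Zfpm1 is shown as a CpG-dense start that was not. Zfpm1 encodes a partner of GATA factors in blood cell formation, and its gene carries methylated tiles further along. Each window is printed 5′ to 3′ on the gene's strand, as RefSeq gives it for GRCm38.p6, with capitals marking the CpGs that were measured in all 5 libraries. The mm9 places are chr13:113442469-113442768 (minus strand) for Ddx4, chr1:168168826-168169125 (minus strand) for Mael, chr3:95363349-95363648 (plus strand) for Hormad1, chr3:40512543-40512842 (plus strand) for Slc25a31, chr2:152512634-152512933 (plus strand) for Mcts2 and chr8:124805791-124806090 (plus strand) for Zfpm1.
Ddx4: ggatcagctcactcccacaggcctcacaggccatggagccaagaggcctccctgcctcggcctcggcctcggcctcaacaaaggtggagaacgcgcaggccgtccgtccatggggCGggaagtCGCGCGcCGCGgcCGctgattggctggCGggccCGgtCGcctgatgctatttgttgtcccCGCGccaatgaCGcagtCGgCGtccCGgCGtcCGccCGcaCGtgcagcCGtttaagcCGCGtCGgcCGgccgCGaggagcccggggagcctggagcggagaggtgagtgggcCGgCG
Mael: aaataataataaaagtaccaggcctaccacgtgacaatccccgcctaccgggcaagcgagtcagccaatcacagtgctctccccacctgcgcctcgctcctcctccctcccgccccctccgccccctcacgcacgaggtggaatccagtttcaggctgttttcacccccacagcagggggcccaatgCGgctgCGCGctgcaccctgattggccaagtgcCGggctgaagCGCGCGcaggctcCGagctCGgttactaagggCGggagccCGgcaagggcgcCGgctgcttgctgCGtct
Hormad1: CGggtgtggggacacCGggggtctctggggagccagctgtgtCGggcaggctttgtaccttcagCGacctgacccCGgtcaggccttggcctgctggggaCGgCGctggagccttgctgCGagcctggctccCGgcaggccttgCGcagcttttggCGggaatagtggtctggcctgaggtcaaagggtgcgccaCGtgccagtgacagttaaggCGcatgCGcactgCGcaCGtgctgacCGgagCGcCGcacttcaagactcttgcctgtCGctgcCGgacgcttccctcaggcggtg
Slc25a31: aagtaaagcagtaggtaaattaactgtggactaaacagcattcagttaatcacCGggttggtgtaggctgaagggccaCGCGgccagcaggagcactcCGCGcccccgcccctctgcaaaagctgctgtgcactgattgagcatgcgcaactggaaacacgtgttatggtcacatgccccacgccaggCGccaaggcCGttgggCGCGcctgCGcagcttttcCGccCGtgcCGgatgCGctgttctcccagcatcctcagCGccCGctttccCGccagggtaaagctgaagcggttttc
Mcts2: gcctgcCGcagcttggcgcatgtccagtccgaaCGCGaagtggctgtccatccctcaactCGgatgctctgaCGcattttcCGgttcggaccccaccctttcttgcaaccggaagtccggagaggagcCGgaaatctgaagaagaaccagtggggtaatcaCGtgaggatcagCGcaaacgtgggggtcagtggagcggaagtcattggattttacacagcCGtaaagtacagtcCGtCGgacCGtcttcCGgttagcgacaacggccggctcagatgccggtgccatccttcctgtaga
Zfpm1: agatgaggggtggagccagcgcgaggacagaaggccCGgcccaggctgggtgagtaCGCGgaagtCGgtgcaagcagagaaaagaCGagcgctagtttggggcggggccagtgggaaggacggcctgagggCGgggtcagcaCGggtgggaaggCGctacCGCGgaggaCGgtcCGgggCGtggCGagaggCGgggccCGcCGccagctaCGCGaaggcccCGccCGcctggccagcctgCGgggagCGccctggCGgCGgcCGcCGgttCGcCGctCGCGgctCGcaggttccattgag

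Within these 300 bp windows, Ddx4 had 28 of its 38 CpGs measured in all 5 libraries, Mael 13 of 24, Hormad1 21 of 24, Slc25a31 17 of 22, Mcts2 14 of 25 and Zfpm1 32 of 37. The Ddx4 and Zfpm1 windows are much alike in composition. Their GC contents were 72.0% and 73.7%, and their ratios of observed to expected CpGs were 0.978 and 0.956. The ratio was 0.780 in Mael, 0.713 in Hormad1, 0.826 in Slc25a31 and 0.991 in Mcts2. Over the measured CpGs of the window, Ddx4 was methylated at 88.2% and 90.8% in the targeted libraries against 90.7%, 91.3% and 90.8% in wild type. The Zfpm1 window was at 0.0275% and 0.0306% in the targeted libraries against 0.0744%, 0.0213% and 0.0398% in wild type.

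The start tile of Ddx4, which encodes the germ cell RNA helicase Vasa, was methylated at 89.6% (targeted library 1) and 91.7% (targeted library 2), and at 91.3%, 92.4% and 91.3% in wild type (libraries 1 to 3). The start tile of Zfpm1, with 104 CpGs, had levels of 0.103% and 0.0770% in the targeted libraries against 0.263%, 0.104% and 0.0700% in wild type. The order of the libraries is the same in every such list below. Neither start separated the targeted from the wild-type libraries, since the groups overlapped at both.

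The start tile of Mael, whose product acts in piRNA-based silencing of transposons in the germ line, was methylated at 86.8% and 82.3% in the targeted libraries against 88.3%, 84.4% and 86.3% in wild type. The groups overlapped. Its CpGs were uneven: the lowest in the window had a targeted mean of 45.8% and a wild-type mean of 47.0%. For Hormad1, which encodes a protein of the meiotic chromosome axis, the tile levels were 94.7% and 94.0% in the targeted libraries against 93.8%, 94.0% and 93.4% in wild type. The lowest CpG of the Hormad1 window was at 79.4% in the targeted and 80.6% in the wild-type mean. For Slc25a31, which encodes the ADP/ATP carrier of the testis, the levels were 93.0% and 94.3% in the targeted libraries against 94.6%, 95.1% and 95.4% in wild type. At Slc25a31 each targeted value was below every wild-type value, by 1.37 points between the group means, and edgeR's quasi-likelihood test gave an adjusted p of 0.935. The start tile of Mcts2, an imprinted retrogene, had levels of 92.5% and 92.0% in the targeted libraries against 92.2%, 93.0% and 91.6% in wild type, and the groups overlapped. Methylation of only the maternal or only the paternal allele would be read at a middle level, and no library had such a level at this tile. Reads were not assigned to parental alleles, so the imprint of Mcts2 was not tested.

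**Figure D1:**
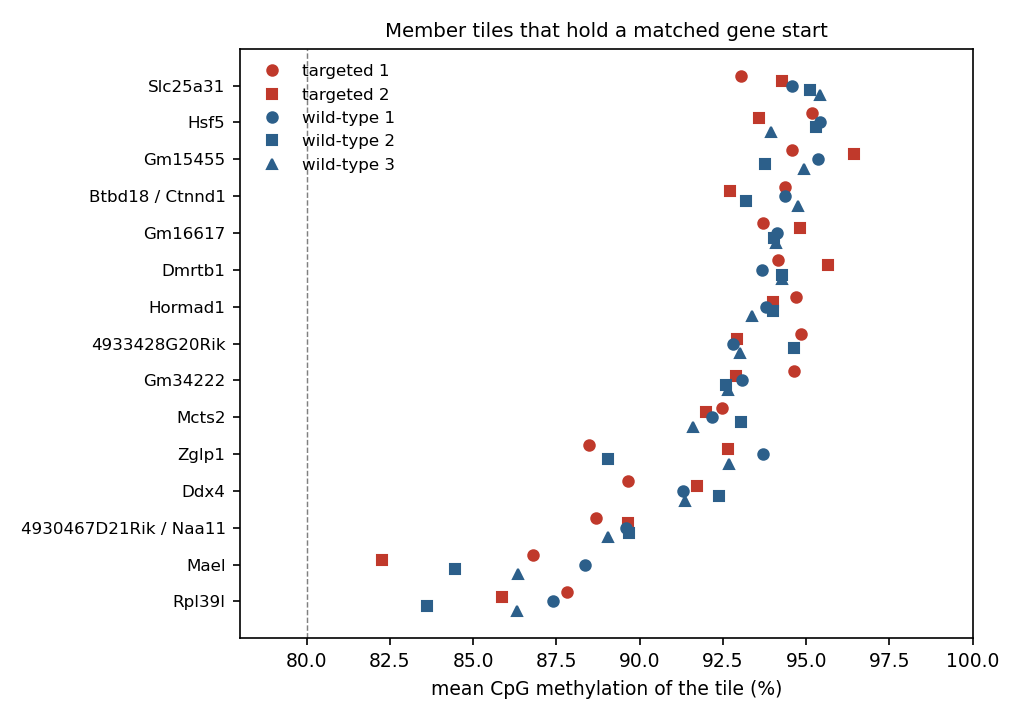
Mean CpG methylation (%) of the 15 methylated CpG-dense tiles that hold a matched gene start, with 1 point per library (red, targeted; blue, wild-type) and the 80% limit as a dashed line. Tiles are ordered by wild-type mean, from Rpl39l to Slc25a31, and the horizontal axis starts at 78%.

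The other starts were those of Hsf5, a heat shock factor gene of the testis, the ribosomal protein paralog gene Rpl39l, the germ cell factor genes Zglp1 and Dmrtb1, the acetyltransferase gene Naa11 with the lncRNA 4930467D21Rik, Btbd18 with Ctnnd1, and Gm15455, Gm16617, Gm34222 and 4933428G20Rik. The windows of Btbd18, which acts in piRNA expression in the testis, and of Ctnnd1, which encodes p120 catenin, overlap on opposite strands in 1 tile. That tile had levels of 94.4% and 92.7% in the targeted libraries against 94.4%, 93.2% and 94.8% in wild type. The Hsf5 tile, with 43 CpGs, had levels of 95.2% and 93.6% in the targeted libraries against 95.4%, 95.3% and 93.9% in wild type. Rpl39l had the lowest wild-type mean among the 15 tiles, with levels of 87.8% and 85.9% in the targeted libraries against 87.4%, 83.6% and 86.3% in wild type. The libraries of the groups overlapped at all 3 of these tiles. The lowest adjusted p over the 15 tiles in edgeR's test was 0.843, at Gm34222, where the targeted mean was 0.989 points higher. Levels there were 94.6% and 92.9% in the targeted libraries against 93.1%, 92.6% and 92.6% in wild type, so the groups overlapped.

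**Figure D2:**
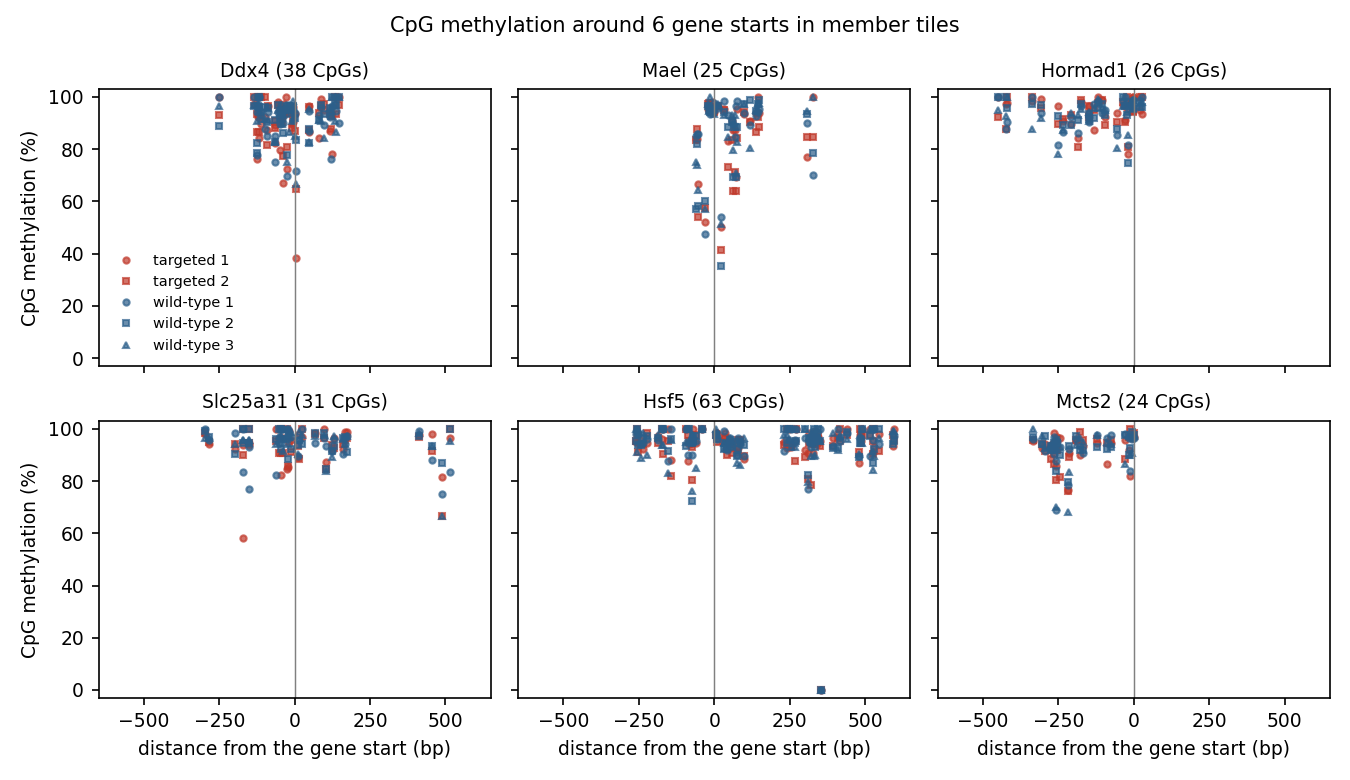
Methylation (%) of single CpGs against their distance (bp) from the matched gene start for 6 genes, with 1 point per CpG and library (red, targeted; blue, wild-type). Most points lie over 80% on both sides of the start, Mael has several CpGs near its start at lower levels, and 1 CpG inside Hsf5 was at 0 in all 5 libraries.

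The 4 gene lists, drawn up with earlier results of these data known, were read against the matched starts. Of 28 germline genes, 11 had a start tile with at least 3 CpGs measured, 9 of them were over 80% in wild type and the same number was over 80% in both targeted libraries. Over all 6729 genes with a matched and measured start tile, 44 were over 80% in wild type, or 0.654%, and 45 in both targeted libraries, or 0.669%. The 4 germline starts in methylated dense tiles were those of Ddx4, Mael, Slc25a31 and Hormad1. Sycp1, Tex101, Asz1, Fkbp6 and Sohlh2 were over 80% too, at tiles with 4 to 14 CpGs, below the density limit. The remaining 2 germline starts were at middle levels. Dazl, which encodes a germ cell RNA-binding protein, had 45.4% and 43.7% in the targeted libraries against 44.7%, 44.8% and 44.9% in wild type over 73 CpGs. Smc1b, which encodes a meiotic cohesin subunit, had 35.1% and 32.9% in the targeted and a wild-type mean of 34.7%. None of the 7 measured starts among 20 blood regulators, the 6 among 20 non-blood regulators or the 3 among 14 housekeeping genes was over 20%, and 98.2% of all 6729 measured starts were under 20%. The blood regulators with measured starts were Runx1, Gata2, Ikzf1, Myb, Gfi1, Bmi1 and Zfpm1.

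The 18 windows in methylated tiles had a median of 23.5 CpGs and a median GC content of 64.8%. The 6598 windows in all CpG-dense tiles had medians of 29 and 67.7%. The median ratio of observed to expected CpGs was 0.731 in the windows of methylated tiles and 0.872 in those of all dense tiles. A pair of short motifs was counted on both strands, chosen after the gene names were seen. The letters CACGTG, the palindromic E-box, occurred in 8 of the 18 windows, or 44.4%, against 10.9% of the windows in all dense tiles and 7.15% of all 32851 promoter windows. Both Hormad1 windows hold it and overlap, so by tile the count was 7 of 15 against 11.7% of the 5396 dense tiles with a matched start. The letters TCCCGC, part of the E2F6 motif, occurred in 8 of the 18 windows as well, against 48.0% of the windows in all dense tiles and 19.98% of all windows. A match of letters is no evidence of binding.

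The CpG within CACGTG could be read at 6 of 8 distinct places in these windows. In Ddx4, at 27 bp before the start, it was methylated at 72.5% and 81.0% in the targeted libraries against 69.8%, 77.7% and 75% in wild type, on 64 to 163 reads. At the Hormad1 site nearer the start it was at 77.9% and 80.9% in the targeted libraries against 81.7%, 74.5% and 85.6% in wild type, on 47 to 90 reads. The groups overlapped at both. At the other Hormad1 site the levels were 93.8% and 90.4% in the targeted libraries against 85.2%, 87.7% and 80.4% in wild type. In 4933428G20Rik they were 90.2% and 91.3% in the targeted libraries against 81.9%, 86.2% and 80.3% in wild type. In these cases each targeted value exceeded the wild-type values, on 52 to 92 reads, while at Mcts2 and Zglp1 the groups overlapped. Single CpGs were not tested. Over the 6 places, wild-type means ran from 66.0% to 94.4% and targeted means from 60.4% to 92.1%, and the lowest of both were at Zglp1, on 11 to 25 reads per library.

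Chromosome 18, with 11 of the 647 tiles, had no matched windows. Away from starts, 235 of the 636 methylated tiles, or 36.9%, lay inside a gene with a matched start, in 209 genes, and 386 lay outside all matched genes. Methylated tiles inside genes lay toward the 3′ end. Their median position was 80.3% of the gene's length from its 5′ end, with quartiles of 56.9% and 91.8%. The 2060 CpG-dense tiles at 20% or less that lay inside genes had a median position of 4.29%. Of the methylated tiles, 190 of 235, or 80.9%, were beyond the middle of the gene, against 13.3% of the unmethylated dense tiles. The last 10% of gene length held 30.2% of the methylated tiles and 2.43% of the unmethylated ones. The median distance of all 636 methylated tiles to the nearest matched start was 35.3 kb, and for unmethylated dense tiles it was 0.877 kb. The members were chosen by level alone, and position was not used. Genes with several tiles count more than once, so these shares are given without a test.

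**Figure D3:**
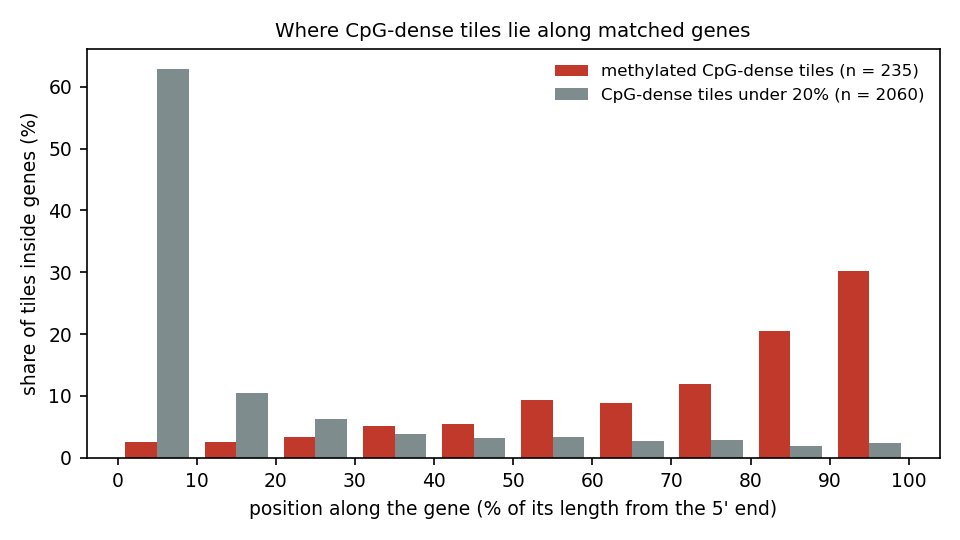
Share (%) of CpG-dense tiles inside matched genes by position along the gene, in steps of 10% of gene length from the 5′ end, for 235 methylated and 2060 unmethylated tiles. The methylated tiles rise to 30.2% in the last step and the unmethylated tiles have 62.9% in the first.

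The start of the same gene was unmethylated in nearly every case. Among 208 of the 209 genes whose start tile was measured, 202 starts, or 97.1%, were under 20% in wild type, close to the 98.2% of all 6729 genes with a measured start. The median start tile had a level of 0.206% and 0.184% in the targeted libraries against 0.168%, 0.125% and 0.115% in wild type. The median over these genes of their methylated tiles was 95.2% and 95.1% in the targeted libraries against 94.8%, 94.98% and 94.7% in wild type. Starts over 80% were found at 3 of these genes, namely Hsf5, Sycp1, which encodes a protein of the meiotic synaptonemal complex, and Sohlh2, a germ cell transcription factor gene. The other starts not under 20% were those of Septin9, Speg and Tubb4a, with wild-type means of 22.6%, 20.2% and 35.2%.

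Of the 7 blood regulators with a measured start, 2 carried methylated dense tiles inside the gene, Runx1 and Zfpm1, with 4 tiles in all. Among the 11 germline genes with a measured start, 2 did so as well, Sycp1 and Sohlh2. No listed non-blood regulator or housekeeping gene did. Of all 6908 genes with a matched start, 209, or 3.03%, carried such a tile, and no test of the lists was made. Runx1 encodes a transcription factor needed to form blood stem cells. One Runx1 tile, chr16:92606001-92607000, lay at 97.9% of the gene and had levels of 96.0% and 97.5% in the targeted libraries against 96.6%, 96.6% and 97.9% in wild type. The other, chr16:92695001-92696000, lay 2.07 kb beyond a matched start of Runx1 and had levels of 85.2% and 87.9% in the targeted libraries against 86.7%, 89.3% and 85.6% in wild type. The tile with that start was at 1.15% and 1.58% in the targeted libraries against 1.11%, 1.12% and 0.765% in wild type. At both methylated Runx1 tiles the groups overlapped, while at the start tile each targeted value exceeded the wild-type values, by under 1 point.

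Zfpm1 held the methylated tile with the most CpGs. Its 82 CpGs at chr8:124860001-124861000, at 97.7% of the gene's length, had mean levels of 94.9% and 93.3% in the targeted libraries against 94.7%, 94.9% and 94.6% in wild type. The tile before it, with 15 CpGs, was at 96.1% and 95.4% in the targeted libraries against 96.8%, 95.5% and 95.7% in wild type. Next by number of CpGs came 78 CpGs in Shroom3, which encodes an actin-binding protein, with 96.0% and 95.5% in the targeted libraries against 96.0%, 95.4% and 95.8% in wild type. The third, with 65 CpGs at chr10:80616001-80617000, was at 93.2% and 93.3% in the targeted libraries against 93.1%, 93.6% and 93.2% in wild type. All 3 tiles were chosen among methylated ones, and the median number of CpGs was 18 in the 647 tiles and 32 in dense tiles at 20% or less. The groups overlapped at the tiles in Shroom3 and on chromosome 10. At the Zfpm1 tile with 82 CpGs they were not separated either, with targeted library 1 above and targeted library 2 below every wild-type value.

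In all, 23 genes carried at least 2 methylated dense tiles and 3 carried 3, namely 2700081O15Rik, Crocc and Fbrsl1. Crocc encodes rootletin, a fibre protein of the ciliary rootlet. Among the genes with 2 tiles were several that encode transcriptional regulators. Zbtb7a, a repressor with roles in blood cells, had a mean of its tiles of 95.4% and 94.8% in the targeted libraries against 95.4%, 95.02% and 93.9% in wild type, with start tile levels from 0.0203% to 0.184% over the 5 libraries. Spen, a corepressor of Notch targets and of X inactivation, had 96.6% and 96.0% in the targeted libraries against 95.8%, 95.2% and 96.0% in wild type. Foxp4, a forkhead factor, had 93.6% and 92.6% in the targeted libraries against 92.2%, 92.2% and 93.2% in wild type. In Spen each targeted value exceeded the wild-type values, the closest being 96.04% in targeted library 2 and 95.96% in wild-type library 3. In Zbtb7a and Foxp4 the groups overlapped. No list of regulators was tested against these 209 genes.

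Most of the methylated dense tiles stood alone as dense tiles. Of the 647, 582 had no methylated dense tile beside them, and the other 65 formed 31 runs, 28 of 2 tiles and 3 of 3 tiles. One run, chr19:7495001-7498000, lay in 2700081O15Rik with 111 CpGs and tile levels from 87.5% to 94.6% over the 5 libraries. Another, chr7:4981001-4984000, had tile levels from 94.1% to 96.6%, and the last, chr7:53048001-53051000, from 80.9% to 92.8%. Only 11 of the 647 tiles had a dense tile under 20% directly beside them.

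Where it was measured, the sequence around the tiles was mostly methylated as well. Flanking tiles with fewer than 3 CpGs measured were not read. Neighbours that belonged to the same set of tiles were left out. The 328 other tiles with at least 3 CpGs directly before or after had mean levels of 85.1% and 84.0% in the targeted libraries against 83.7%, 83.7% and 83.6% in wild type. Of these neighbours, 82.6% were over 80% in wild type and 7.01% were under 20%. Such high levels were common in general. Of all 89111 tiles with at least 3 CpGs, 50289 with 3 to 14 CpGs were over 80% in wild type. Around unmethylated dense tiles, the 5641 neighbours had means of 16.5% and 15.5% in the targeted libraries against 15.2%, 15.2% and 15.2% in wild type. At 5 kb the means were 63.1% to 64.3% around methylated tiles and 60.7% to 62.6% around unmethylated ones over the 5 libraries. The contrast at 1 kb had nearly gone by then.

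**Figure D4:**
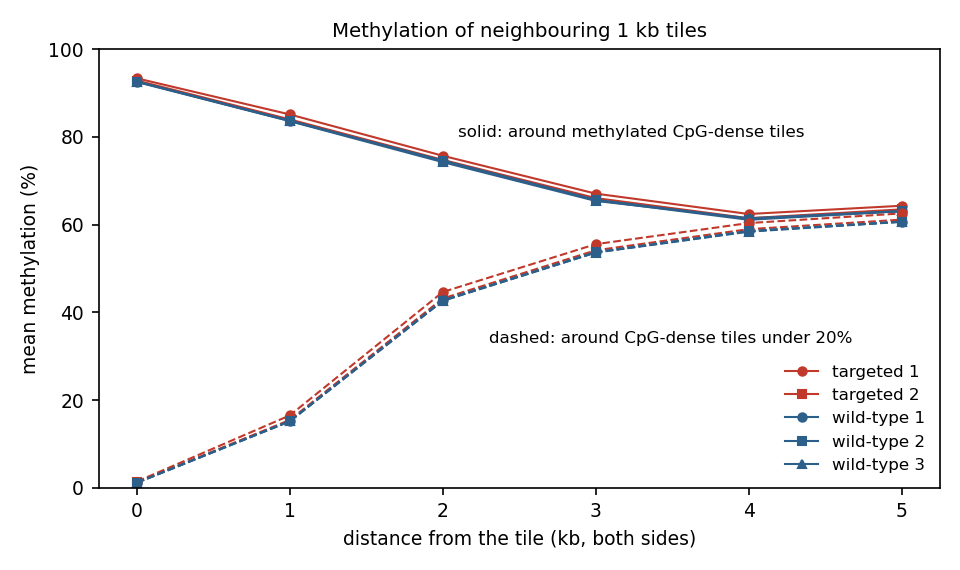
Mean methylation (%) of tiles at 0 to 5 kb on both sides of methylated (solid) and unmethylated (dashed) CpG-dense tiles, with 1 line per library (red, targeted; blue, wild-type). The lines fall from 92.5% to 93.4% at the methylated tiles to 63.1% to 64.3% at 5 kb, and rise from 1.14% to 1.43% at the unmethylated tiles to 60.7% to 62.6%.

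By chromosome, the share of dense tiles that were methylated was highest on chromosome 7, at 6.84% (74 of 1082), and on chromosome 10, at 6.49% (51 of 786). It was lowest on chromosome 14, at 2.22% (12 of 540).

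The levels that chose the tiles are given as a description. In wild type the highest tiles were chr15:76006001-76007000 at 97.1%, a tile in Usp32, which encodes a deubiquitinase, at 97.0%, and the 3′ tile of Runx1 at 97.0%. Just inside the limit lay a tile in Elfn2 at 80.1%, chr4:44486001-44487000 at 80.1% and a tile in Neurl1b at 80.2%. Just outside lay chr2:168094001-168095000 at 79.96%, a tile in Crlf2 at 79.7% and chr8:28090001-28091000 at 79.4%. There were 53 dense tiles over 80% and up to 85%, and 32 over 75% and up to 80%. In the targeted libraries, which the rule did not use, no selected tile had a mean of 80% or less, and 22 other dense tiles had a mean over 80%. The widest spread over wild-type libraries was at chr11:96203001-96204000, with 74.98%, 88.8% and 84.3% (SD 7.04), where the targeted libraries had 84.9% and 90.3%. Next came chr1:3521001-3522000 with an SD of 5.63 and the tile in Elfn2 with an SD of 5.34. The median SD over wild-type libraries was 0.759 points.

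Within the tiles nearly all CpGs followed the mean. Of the 13186 CpGs, 95.1% and 93.8% were over 80% in the targeted libraries against 93.2%, 93.4% and 93.7% in wild type. Under 50% were 114 and 119 CpGs in the targeted (0.865% and 0.902%) and 137, 149 and 125 in the wild-type libraries. In all 5 libraries, 66 CpGs were under 50%, spread over 54 tiles, and 44 of these tiles held a single such CpG. For the 61 with another measured CpG within 50 bp, the median level of those neighbours was 84.7%. No CpG was under 50% in both targeted and over 80% in all wild-type libraries, nor the reverse. The widest ranges over CpGs in the targeted mean were in a Tbc1d22a tile (0.648% to 100%), chr17:11491001-11492000 and chr12:110470001-110471000 (both 0% to 99.3%).

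Of the 66 CpGs, 18 were under 20% in all 5 libraries. The CpG at chr12:5058660 had 0 methylated reads of 248 and 158 in the targeted and of 185, 191 and 99 in the wild-type libraries, which allows a level of up to 1.21% to 3.03%, while its 2 neighbours within 50 bp averaged 97.5%. Inside Hsf5, the CpG at chr11:87431021 had 0 methylated reads of 21 to 68 reads per library, which allows up to 4.41% to 14.3%, and its 11 neighbours averaged 94.0%. The CpG at chr15:86054160 in Tbc1d22a was at 0.725% and 0.571% in the targeted and at 0 in the wild-type libraries, and its 9 neighbours averaged 97.0%. These positions were low in every library of both groups. A genomic C-to-T difference from the reference is read by this assay as loss of methylation, and the part of such differences was not tested.

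Between groups, the tiles' mean level was slightly higher in the targeted libraries. Over the 647 tiles the means were 93.37% (targeted library 1), 92.87% (targeted library 2), and 92.61%, 92.64% and 92.54% in wild type. That is 93.1% ± 0.355 (SD, n = 2) against 92.6% ± 0.0504 (SD, n = 3), a difference of 0.525 points. The groups did not overlap, but the targeted libraries lay farther from each other than the wild-type libraries did. That difference fell to 0.274 points without targeted library 1 and was 0.776 points when the other was left out. Because the wild-type level chose the tiles, the test was read from 657 dense tiles over 80% in the mean of all 5 libraries, a choice that treats the groups alike. There the difference was 0.594 points (0.319 without targeted library 1), and the exact permutation test (two-sided) over the 10 splits gave p = 0.1, the smallest it allows.

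The difference was larger in classes of less methylated tiles. For dense tiles at 80% to 85% in the mean of all 5 libraries, the levels were 85.4% and 82.7% in the targeted libraries against 81.4%, 81.9% and 81.6% in wild type, a difference of 2.41 points over 56 tiles. At 85% to 90% it was 1.16 points over 87 tiles, at 90% to 95% it was 0.379 points over 247 tiles, and at 95% to 100% it was 0.224 points over 267 tiles. In each class targeted library 1 was highest. Without it the differences were 1.05, 0.528, 0.216 and 0.192 points in the same order of classes. No test was made between classes.

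A higher targeted mean was measured outside the dense methylated tiles too, in sets again chosen by the mean of all 5 libraries. The 50658 tiles over 80% with 3 to 14 CpGs differed by 0.665 points, or 0.364 without targeted library 1. The 14015 dense tiles under 20% differed by 0.155 points, or 0.0572 without it. Among the 657 tiles, the 15 with a matched start differed by -0.127 points (-0.183 without targeted library 1). The 238 inside genes differed by 0.428 points (0.267 without it), and the 393 outside matched genes by 0.727 points (0.386 without it). The differences between these classes were not tested.

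**Figure D5:**
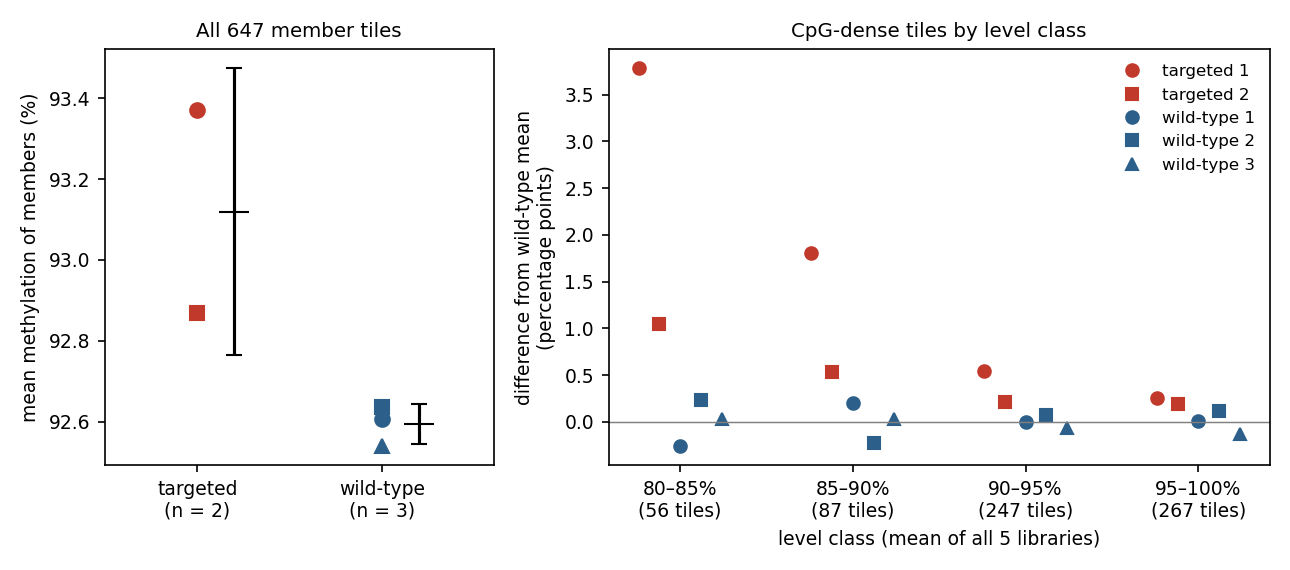
Left, mean methylation (%) over the 647 tiles per library, with the mean and SD of each group; the axis covers about 1 point. Right, difference (percentage points) of each library from the wild-type mean for dense tiles in 4 classes of the mean over all 5 libraries; targeted library 1 is highest in each class.

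Tile by tile, no methylated dense tile was called. The call required a Benjamini-Hochberg adjusted p under 0.05 in edgeR's quasi-likelihood test and a difference of at least 10 points, adjusted over 88785 tiles with at least 3 CpGs. Called were 0 of the 647 tiles in either direction, against a background of 0% higher and 0% lower over all tested tiles. On the adjusted p alone 0 of the 647 tiles passed as well (background 0.00225% higher and 0% lower). At an unadjusted p under 0.05, edgeR had 12 tiles higher, or 1.85% (background 5.34%), and 0 lower (background 0.944%). limma had 6 higher (background 5.27%) and 0 lower (background 1.19%). At an unadjusted p in edgeR, 2 tiles were higher and 0 lower without targeted library 1, and 29 were higher and 2 lower without targeted library 2. Each of these fits has a single targeted library, which is assumed to vary like the wild-type ones. The lowest adjusted p of a methylated dense tile in edgeR was 0.795. Among the 657 tiles chosen by the mean of all 5 libraries, edgeR had 14 higher at an unadjusted p under 0.05, or 2.13%, and 0 lower.

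The median difference over the 647 tiles was 0.362 points, with a range from -3.97 to 7.07. It was higher in the targeted group at 435 of 647 tiles, or 67.2%, against a median of 0.290 points and 65.4% over all tested tiles. Each targeted value exceeded every wild-type value at 116 tiles, or 17.9% (background 17.6%), and was below every one at 28, or 4.33% (background 5.37%). Taken alone, targeted library 1 exceeded the wild-type values at 274 tiles, or 42.3% (background 42%), and was below them at 88, or 13.6% (background 14.3%). Targeted library 2 exceeded them at 201 tiles, or 31.1% (background 30%), and was below them at 127, or 19.6% (background 19.2%). Because the wild-type level chose the 647 tiles, the shares were also read from the 657 tiles chosen by the mean of all 5 libraries. There both targeted values were above every wild-type value at 18.9% of tiles and below at 4.26%. Targeted library 1 alone was above at 43.2% and below at 13.4%, and targeted library 2 at 31.8% and 19.3%. With either choice these shares were near the background in both directions.

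The tiles with the smallest p in each direction show the size of what was not called. Highest in rank was chr5:143890001-143891000, with 94.7% and 93.0% in the targeted libraries against 87.5%, 91.2% and 81.7% in wild type, a difference of 7.07 points, which was 4.52 without wild-type library 3. A tile in Gpc2, which encodes a glypican, had 91.9% and 89.2% in the targeted libraries against 84.6%, 84.3% and 84.6% in wild type. At chr7:53048001-53049000, the first tile of a run above, the levels were 92.3% and 87.4% in the targeted libraries against 83.6%, 83.7% and 82.2% in wild type, a difference of 6.70 points, which was 4.21 without targeted library 1. At these 3 tiles each targeted value exceeded the wild-type values, and edgeR's adjusted p was 0.795 for each.

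In the lower direction, chr14:55330001-55331000 had 90.2% and 90.5% in the targeted libraries against 94.0%, 91.9% and 93.0% in wild type. The tile chr11:60292001-60293000 had 89.3% and 89.4% in the targeted libraries against 94.3%, 92.7% and 93.0% in wild type, and its difference of -3.97 points was the lowest of all 647. At chr7:148268001-148269000 the levels were 94.0% and 94.9% in the targeted libraries against 96.0%, 94.1% and 95.9% in wild type. Its difference of -0.878 points ran from -1.51 to -0.437 with a library left out, the extremes being those without wild-type library 2 and without targeted library 1. The groups overlapped at the last of these tiles and not at the other two, and edgeR's adjusted p was 0.802 for the first and 0.803 for the others.

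Depth differed between libraries. Total coverage was between 122015958 and 151634492 per library, summed over strand entries. In the methylated dense tiles CpGs had a median coverage of 98 and 85 in the targeted libraries against 80, 86 and 87 in wild type. In unmethylated dense tiles the medians were 92 and 149 in the targeted libraries against 137, 142 and 125 in wild type. The ratio of these medians was 1.07 for targeted library 1, against 0.570 to 0.696 for the other 4. Targeted library 1, the library highest in mean level, is thus the one that read methylated and unmethylated tiles at nearly equal depth, and the part of this in the result was not tested. One tile, chr11:3093001-3094000, had mean coverages of 3166 to 5149 per library, and without the highest 0.1% of coverage 641 tiles were left and the mean difference was 0.532 points.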

How the data were processed

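CpG methylation was measured in 2 targeted and 3 wild-type libraries of LSK cells, and the targeted gene is not reported here. Per the labels' protocols, DNA cut with MspI was size-selected to 150 to 400 bp, converted with bisulfite and read from 1 end over 50 bp. The submitters' processing notes name Bismark and the build mm9 (NCBIM37), without a version of the aligner. Per the file headers, the deposited tables list cytosines of CpGs separately for the strands, giving coverage as a plain read count and C and T as percent of it. The lowest deposited coverage was 10. Methylated reads were recovered as percent of C times coverage, which was whole within 0.01 for 99.97% of entries.

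Strands were merged, and tile levels are means over CpGs. Methylated and unmethylated reads of a tile were tested with edgeR 4.0.16 (library factor, common dispersion) over all tiles with at least 3 CpGs; a read over several CpGs counts once for each. limma 3.58.1 used log2 ratios of the same reads after adding 1 to both. Means per library were compared by exact permutation. Scripts ran in Python 3.11.15 and R 4.3.3 and were tested on simulated data. The limit set by a count of 0 is 3 reads of the total; it covers counting error only, as reads carried no molecular identifiers.

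A promoter window was matched where at least 8 measured CpGs fell on its CpGs, every measured CpG within it was one of its CpGs, the place was unique on the chromosome and RefSeq gene order was kept. Of 31396 windows, 15382 had at least 8 CpGs and 7735 matched at 1 place, of which 7727 were in order. A tile's position in a gene is its distance from a matched start, plus that start's distance from the gene's 5′ end, over the gene's RefSeq length. The plan named tiles by position only where no mm9 annotation was given; this matching, the genes and lists read from it, and the motifs were added after the data were seen. The members, lists and tests were chosen with earlier results of these data known. Tiles were named by rule: the 3 smallest p in each direction, most CpGs, highest and lowest level, nearest outside the limit, the longest runs, widest range over CpGs and widest wild-type SD. Genes in 2 or more tiles, starts in tiles and the other examples were named after their values were seen.

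Alternatives were a coverage minimum of 20, an upper limit on coverage, other CpG and level limits, other choices of members, reads weighted equally, each library left out, a replicate block, limma, a fit on dense tiles only, tiles without their most different CpG, other neighbours, and, added after the data were seen, promoter matches on 12 or more CpGs and tiles with a start only.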

Additional observations from a re-analysis of the deposited data

How the results depend on the processing

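The number of methylated dense tiles was 2682 with at least 10 CpGs and 225 with at least 20 CpGs, against 647; the other limits gave 495 to 679, and leaving out 1 wild-type library 644 to 645. The mean difference was higher in the targeted libraries for all other choices of tiles, libraries and weights tried, from 0.274 to 0.776 points with a library left out and from 0.345 to 0.671 otherwise; over the 15 tiles with a matched start only, added after the data were seen, it was -0.127. The same-numbered libraries correlated at 0.00580 and 0.0385 in their deviations over tiles. With 2 targeted libraries, their deviations from the group mean are equal and opposite. These correlations therefore cannot tell whether the numbers mark pairs. With the replicate block the difference was 0.497 points, and 0 tiles were called. No alternative called a tile in edgeR or limma, and the adjusted p of the 6 tiles named for the smallest p ran from 0.372 to 1.0. Neighbours had a mean over all 5 libraries of 84.0%, 82.3% with at least 5 CpGs, 74.8% at 2 positions away and 84.8% at a coverage of 20. CpGs under 50% were 0.884% of CpGs in the targeted mean, and 0.159% with a limit of 20%. With promoter matches on 12 or more CpGs, 13 tiles held a start and the median position in genes was 82.7%. Each of the 235 tiles inside genes lay in a single matched gene, so leaving out tiles on several genes changed nothing. With 2 and 3 libraries no exact test could fall below 0.1, and a coverage near 80 to 98 reads per CpG limits the level of single CpGs more than that of tiles.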

Other observations

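Regions kept out of the count also held methylated CpG-dense tiles. On chromosome 6 beyond 100 Mb, 7 of 237 dense tiles, or 2.95%, were over 80% in wild type, with means of 93.7% and 93.0% in the targeted libraries against 92.7%, 92.2% and 92.7% in wild type. Their differences ran from -1.06 to 2.75 points.

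On the X chromosome, 24 of 355 dense tiles, or 6.76%, were over 80%, with means of 92.4% and 91.7% in the targeted libraries against 92.1%, 91.3% and 92.0% in wild type. The groups overlapped there. Another 267 dense tiles of the X chromosome, or 75.2%, lay from 20% to 80%, against 431 of the 15119 dense tiles on the autosomes used.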
